A study of Mus musculus with 6 samples.

Results

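The histone genes of mouse 4-cell embryos were described here, in embryos that had been kept under a transcription inhibitor and in control embryos. They were taken as the rows whose symbol begins with Hist1h to Hist4h, H1f, H2af or H3f3, with names ending in -ps left out. That gave 87 of the 55335 genes listed for each library. By symbol, 69 are replicative genes of the Hist clusters and 18 are variant genes. The split is by name and not by position: the variant gene H2afj (chr6:136808244-136810074) lies near Hist4h4 (chr6:136801553-136804415). One of the 18, H3f3aos, is annotated as an antisense RNA of the H3f3a locus and encodes no histone. The symbols also take in testis and oocyte forms that lie within the clusters, such as Hist1h2aa, Hist1h2ba and Hist1h1t, and these stay with the replicative genes by name.

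Zygotes of the treated group (DRB) were given DRB, a benzimidazole riboside that inhibits elongation by RNA polymerase II, at 20 µM, starting 6 h after fertilization and lasting 20 h. They were then washed and cultured for another 26 h in medium without the inhibitor before they were collected at the 4-cell stage. The control group (Con) was collected at the same stage. Each group had 3 libraries. The sources used here give neither the strain nor the number of embryos per library, nor whether Con embryos received a vehicle. Replicates are not stated to be separate cultures, so a p-value stands for the spread among these libraries alone, which could be technical.

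The libraries were made by Smart-Seq2, which primes reverse transcription with oligo-dT and so copies RNA that carries a poly(A) tail. Values are FPKM, fragments scaled to transcript length and to the library's total, as deposited. Low values moved in steps of 1 fragment when 160 to 180 bases were taken off the transcript length, so FPKM of short histone genes stands for a shortened length. The depth estimated from these steps was 22200000 to 25200000 fragments per library. More genes were above 0 FPKM in Con replicate 1 (22102) than in any other library (18485 to 19895). The 14 markers of the early embryo all passed the filter on low values, with summed levels of 13650 to 24900 FPKM in DRB and 14810 to 22490 FPKM in Con libraries. Dppa3 made up nearly all of that sum, and the other 13 summed to 117 to 217 FPKM in DRB libraries and 168 to 207 FPKM in Con libraries. Markers of cumulus and granulosa cells summed to 19.9 to 28.6 FPKM in DRB and 18.0 to 23.6 FPKM in Con libraries, with 5 of 10 listed at 0 in every library (Has2, Ptx3, Cyp11a1, Fshr and Cyp19a1) and the sum almost all from Amhr2. Those of sperm and spermatids summed to 12.5 to 24.2 FPKM in DRB and 12.7 to 22.7 FPKM in Con libraries, with Tnp2 and Hils1 of 10 at 0, and those of blood to 47.1 to 87.6 FPKM in DRB and 74.4 to 115.8 FPKM in Con libraries, with none of 8 at 0 throughout.

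Replicative histones package DNA as it is copied, and their genes are transcribed mainly in S phase. Their mRNAs normally end in a stem-loop in place of a poly(A) tail, and the stem-loop binding protein reads that end. Variant histones are made throughout the cell cycle, largely from genes outside the clusters, and most of these genes give polyadenylated mRNAs. In the oocyte and early embryo, H3.3 and the oocyte linker histone H1foo come in large part from maternal stores. The values here do not separate maternal from embryonic RNA.

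H2afj, which encodes the variant H2A.J, was lower in DRB embryos at 0.428 of its Con mean, and it was the only histone gene that passed the test. That call was near its threshold and held in 2 of 14 alternative settings. The linker histone gene H1f0 stood at 2.96 times its Con mean in DRB and the H2A.X gene H2afx at 0.285 times its Con mean, both with no overlap between the groups, and neither passed. The mRNAs that made up most of the histone signal, H3f3b, H3f3a, H2afz, H2afv and the replicative Hist1h2ap, did not pass either. None of the replicative genes passed. In bulk embryos, fewer cells that hold an RNA and less of it per cell cannot be told apart.

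Of the 87 genes, 39 had at least 1 FPKM in at least 3 of the 6 libraries and were tested with limma on log2(FPKM + 1), with p-values adjusted by Benjamini-Hochberg over all 11893 genes tested. None of the 39 was called higher in DRB at an adjusted p below 0.05 and 1 was called lower, where 1.53% of all genes tested were called higher and 0.950% lower, 2.48% in all. The groups did not overlap in 8 of the 39, 4 higher and 4 lower in DRB, where 9.85% of all genes tested were higher and 13.9% lower without overlap, 23.8% in all. At an unadjusted p below 0.05 from the same limma fit there were 3 higher and 4 lower histone genes, where 18.1% of all genes tested reached that threshold. Of these, 2 higher and 1 lower were among the 29 replicative genes tested, of which limma called 0. The share that did not overlap and the share under the unadjusted threshold were thus near those of all genes.

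Of the 39 log2 fold changes (DRB over Con), 25 were above 0 with a median of 0.21, while 44.0% of all genes tested were above 0 with a median of -0.09. The median was 0.22 over the 29 replicative genes tested and 0.09 over the 10 variant genes tested. Leaving out mitochondrial genes and rescaling raised the median of all genes to 0.02, and the histone median was then 0.29 over the 43 histone genes that passed the filter. These medians depended on single libraries. Leaving out 1 library gave a histone median of 0.08 (without Con replicate 3, with 36 genes tested) to 0.35 (without DRB replicate 1), and 54.1% (without Con replicate 2) to 73.5% (without Con replicate 1) of the tested histone genes above 0. The variant median was -0.06 without Con replicate 3.

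**Figure D1:**
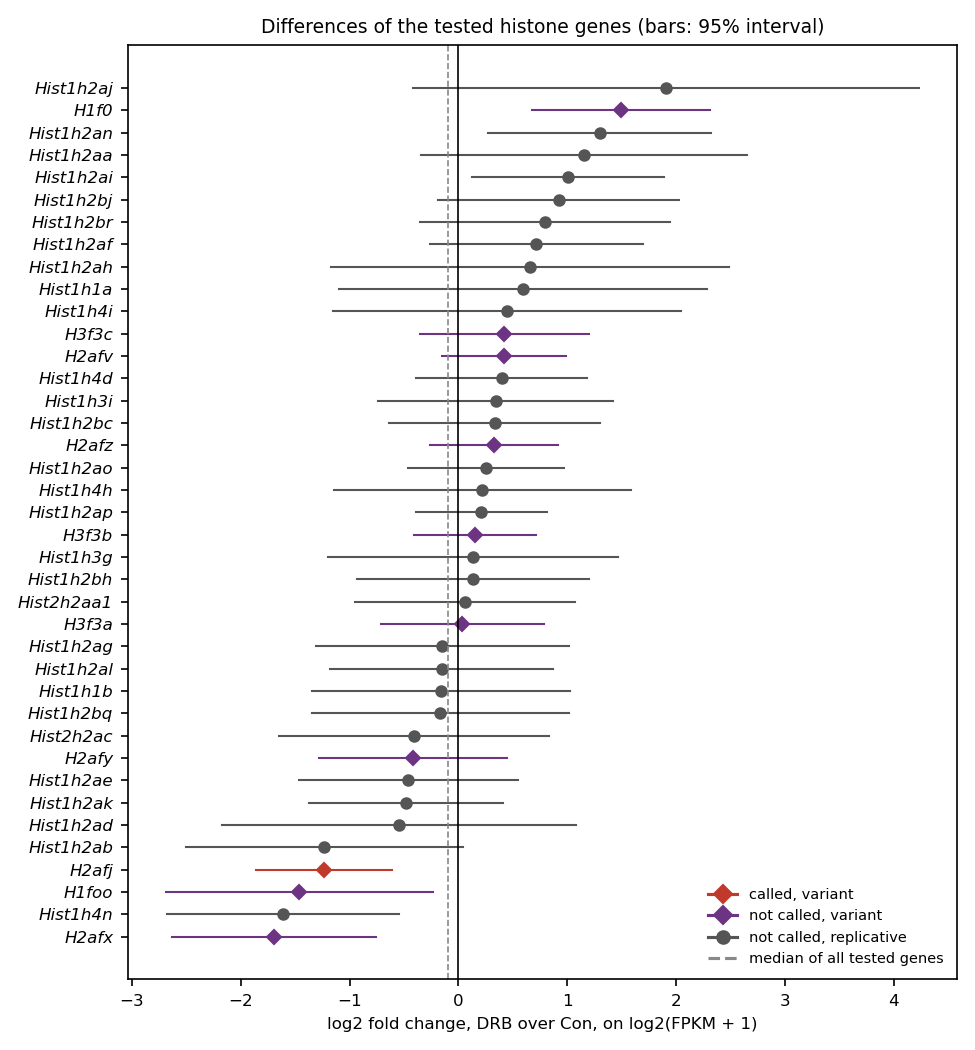
Log2 fold changes, DRB over Con, on the log2(FPKM + 1) scale (horizontal axis) for the 39 tested histone genes (vertical axis), with 95% intervals from limma, diamonds for variant and circles for replicative genes, and a dashed line at the median of all 11893 genes tested. H2afj is the one called gene, and the intervals of most replicative genes span 0.

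The replicative H2A genes were the class with most members above the filter, 16 of 20, against 2 of 6 for replicative H1, 5 of 18 for H2B, 2 of 12 for H3 and 4 of 13 for H4. A single gene, Hist1h2ap (chr13:21833026-21833507, minus strand), made up most of the signal. It had 1884, 2964 and 3068 FPKM in DRB replicates 1 to 3, against 2131, 2465 and 2099.5 FPKM in Con replicates 1 to 3. It was the 63rd gene by mean FPKM of all genes, and stood for an estimated 14073 to 24892 fragments in DRB libraries and 14542 to 17999 in Con libraries. The groups overlapped, with DRB replicate 1 lowest and DRB replicates 2 and 3 highest (log2 fold change 0.21 ± 0.27 SE, 95% interval -0.39 to 0.81, limma adjusted p = 0.747). Hist1h2ap held 85.8%, 85.7% and 92.2% of the summed replicative FPKM in DRB and 85.3%, 92.8% and 92.2% in Con.

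The annotated Hist1h2ap transcript ends just past its stem-loop, as the mRNA of a replicative gene would without a tail. The 3′ ends of 5 histone genes are shown to set its end beside others, from the first base of the stem-loop (capitals) to at most 14 bases past it, from GENCODE M21 transcripts (GRCm38).
Hist1h2ap: GGCTCTTTTCAGAGCCatc
Hist1h2ao: GGCTCTTTTCAGAGCCatccacagtgtctt
Hist1h4d: GGCCCTTTTCAGGGCCactaccttctcact
Hist1h4i: GGCCCTTTTTAGGGCCaccacaaaatcaaa
H2afx: GGCCCTTTTAAGGGCCaccacctccctcac
The Hist1h2ap model stops 3 bases after the stem-loop, that of Hist1h2ao 31 bases after it, those of the H4 genes Hist1h4d and Hist1h4i 770 and 330 bases after it, and that of H2afx 822 bases after it. H2afx was the only variant gene with a stem-loop, and it also carries a polyadenylation hexamer within the last 50 bases of its model.

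A stem-loop was found in 44 of the 69 replicative genes, searched on the transcript strand after the stop codon. The form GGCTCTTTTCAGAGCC was the most common, in 26 genes of the H1, H2A, H2B and H3 types. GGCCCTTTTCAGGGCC was found in 7 genes, all of them H4. The model ran more than 100 bases past the stem-loop in 22 of the 44 genes and at most 100 bases past it in the other 22. A polyadenylation hexamer (AATAAA or ATTAAA) lay in the last 50 bases of 17 replicative and 11 of 18 variant models. Among replicative genes, 13 models held no base after the stop codon, so no end could be read for them.

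The levels were set beside the annotated ends, as a description. For replicative models that end at most 100 bases after the stem-loop, the median of the mean FPKM over 6 libraries was 1.07. It was 0.194 for models that run further and 0.35 for the 17 with a polyadenylation hexamer. Of these 17, 13 also have a stem-loop and are already counted in those classes. For the 21 replicative genes with neither feature, which include those whose end could not be read, it was 1.32. For the 11 variant genes with the hexamer it was 21.6 FPKM. FPKM divides by transcript length, and models that run further past the stem-loop are mostly longer (482 bases for Hist1h2ap, 7425 for Hist1h1d). Whether length sets these medians apart was not tested. Hist1h2ap, with a mean of 2435 FPKM, is in the first class, and the next highest replicative gene, Hist1h2ah, averaged 82.9 FPKM.

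**Figure D2:**
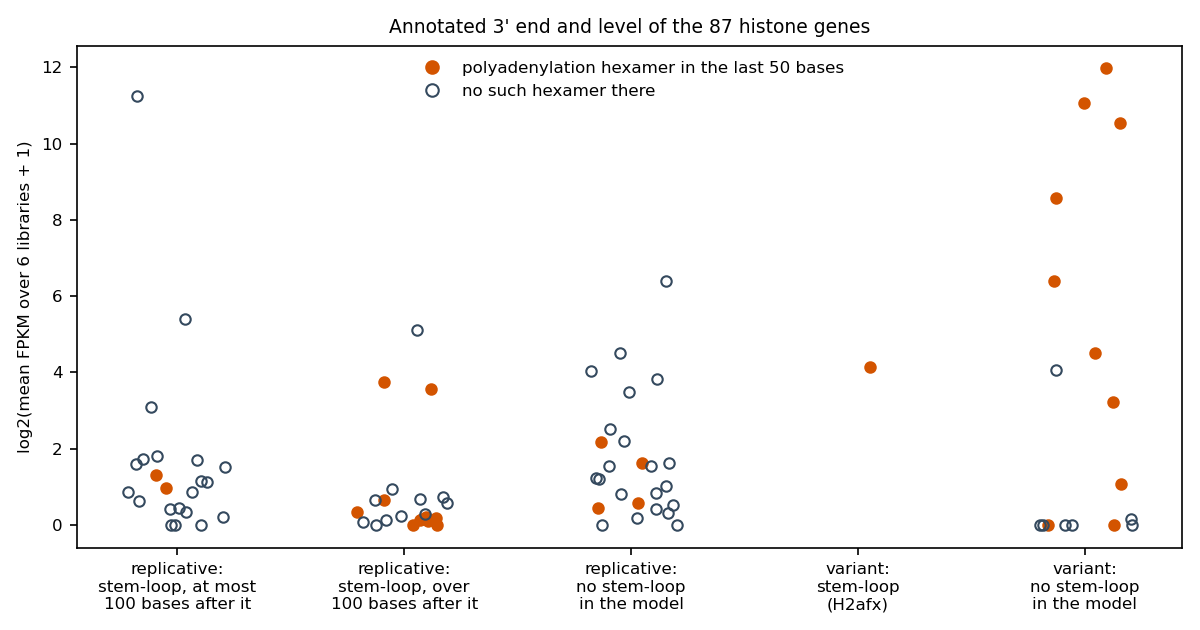
Mean FPKM over the 6 libraries as log2(FPKM + 1) (vertical axis) for each of the 87 histone genes, grouped by the annotated 3′ end of its transcript models, with filled points for models holding a polyadenylation hexamer in their last 50 bases. The top replicative point is Hist1h2ap, in the class with a stem-loop and at most 100 bases after it, and the top points of the variant class are H3f3b, H2afz and H3f3a.

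Hist1h2ap has a near-identical copy, so its reads may be split with it. Of the 150-base windows of its transcript, 91.0% also occur in Hist1h2ao, and 91.5% of those of Hist1h2ao occur in Hist1h2ap. Hist1h2ao had 30.4, 48.7 and 58.0 FPKM in DRB replicates 1 to 3, against 38.9, 42.4 and 30.5 FPKM in Con replicates 1 to 3 (log2 fold change 0.25 ± 0.33 SE, limma adjusted p = 0.748). The ratio of Hist1h2ap to Hist1h2ao was 52.9 to 62.0 in DRB libraries and 54.8 to 68.8 in Con libraries. Their sum was 2684 ± 669 FPKM in DRB and 2269 ± 208 FPKM in Con libraries (SD, n = 3 each). More than 50% of the windows were shared with another gene in 25 of the 69 replicative genes and in 0 of the 18 variant genes, so values of single replicative genes are less certain than those of variants.

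Among the other replicative H2A genes the libraries differed widely within a group. Hist1h2ah had 102, 221 and 14.6 FPKM in DRB replicates 1 to 3, against 90.9, 50.6 and 18.2 FPKM in Con replicates 1 to 3 (0.66 ± 0.83 SE, limma adjusted p = 0.742). The third replicate was lowest in both groups, the groups overlapped, and 84.8% of the windows of this gene are shared with other genes. Hist1h2an had 11.6, 4.32 and 5.63 FPKM in DRB libraries, against 1.34, 2.07 and 3.18 FPKM in Con libraries. Each DRB library stood above every Con library, with a log2 fold change of 1.3 ± 0.47 SE that did not pass (limma adjusted p = 0.172).

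Hist1h2aj and Hist1h2ai were looked at after their values were seen. Hist1h2aj, annotated as an unprocessed pseudogene, had 10.3, 15.8 and 7 FPKM in DRB replicates 1 to 3, against 27.6, 0 and 0 FPKM in Con replicates 1 to 3. One Con library was thus above all DRB libraries and the others were listed at 0 (limma adjusted p = 0.375). Without Con replicate 1 it was called higher in DRB at a limma adjusted p of 0.0102, and 89.7% of its windows occur in Hist1h2ai. Hist1h2ai had 17.9, 41.3 and 29.3 FPKM in DRB libraries, against 19.5, 12.9 and 9.45 FPKM in Con libraries (1.01 ± 0.40 SE, limma adjusted p = 0.216), and DRB replicate 1 lay below Con replicate 1.

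Hist1h2aa encodes TH2A, an H2A form of testis and oocytes, and Hist1h2ba its partner TH2B. Hist1h2aa had 0, 4.22 and 6.59 FPKM in DRB replicates 1 to 3, against 0.66, 1.15 and 0 FPKM in Con replicates 1 to 3. A 0 stood in each group and the groups overlapped (limma adjusted p = 0.407). Hist1h2ba did not pass the filter, with 0, 0 and 0.78 FPKM in DRB and 0, 0.64 and 0 FPKM in Con libraries.

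The replicative linker histones were low. Hist1h1b, encoding H1.5, had 6.22, 17.7 and 11.7 FPKM in DRB replicates 1 to 3, against 18.6, 5.00 and 19.5 FPKM in Con replicates 1 to 3 (-0.16 ± 0.54 SE, limma adjusted p = 0.914). Hist1h1a, encoding H1.1, had 6.24, 0.23 and 7.83 FPKM in DRB libraries, against 4.54, 0.22 and 2.41 FPKM in Con libraries (0.59 ± 0.77 SE, limma adjusted p = 0.751). Both overlapped between the groups, and replicate 2 of each group was near 0 for Hist1h1a. The other 4 replicative H1 genes did not pass the filter, and the highest mean among them was 0.662 FPKM for Hist1h1e.

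Among replicative H2B genes, Hist1h2br had 10.2, 2.56 and 2.42 FPKM in DRB replicates 1 to 3, against 2.41, 1.27 and 2.34 FPKM in Con replicates 1 to 3. The lowest DRB value lay just above the highest Con value, and 1 DRB library stood well above the rest (0.80 ± 0.52 SE, limma adjusted p = 0.462). Its copy Hist1h2bq, which shares 92.4% of its windows with other genes, had 0.18, 3.73 and 2.46 FPKM in DRB libraries, against 2.43, 1.27 and 2.51 FPKM in Con libraries. The sum of the pair was 10.4, 6.29 and 4.88 FPKM in DRB libraries, against 4.84, 2.54 and 4.85 FPKM in Con libraries, with the lowest DRB value at the highest Con values. Hist1h2bj had 5.63, 3.02 and 1.37 FPKM in DRB libraries, against 2.42, 0.67 and 0.63 FPKM in Con libraries, and the groups overlapped (0.92 ± 0.50 SE, limma adjusted p = 0.368).

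Replicative H3 was barely seen. All 12 genes summed to 2.79, 7.41 and 6.92 FPKM in DRB replicates 1 to 3, against 7.54, 1.40 and 1.81 FPKM in Con replicates 1 to 3. The highest of them by mean, Hist1h3g, had 0, 0.78 and 3.87 FPKM in DRB libraries, against 2.00, 0 and 1.18 FPKM in Con libraries (0.14 ± 0.61 SE, limma adjusted p = 0.937).

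The most abundant replicative H4 gene was Hist1h4d, which shares no window with another gene. It had 31.6, 30.7 and 52.8 FPKM in DRB replicates 1 to 3, against 34.7, 18.7 and 33.4 FPKM in Con replicates 1 to 3, an overlap between the groups (0.40 ± 0.36 SE, limma adjusted p = 0.616). Hist1h4i had 15.1, 10.9 and 8.25 FPKM in DRB libraries, against 32.4, 6.45 and 1.82 FPKM in Con libraries, so the Con libraries lay on both sides of the DRB libraries (0.45 ± 0.73 SE, limma adjusted p = 0.811), and without Con replicate 1 its log2 fold change was 1.40, which did not pass. Hist1h4n was lower in each DRB library, with 0, 2.09 and 0.17 FPKM in DRB libraries, against 4.01, 3.18 and 3.94 FPKM in Con libraries. These rest on an estimated 0, 13 and 1 fragments in DRB and 23, 19 and 23 in Con, and the difference did not pass (-1.61 ± 0.48 SE, limma adjusted p = 0.110). Without DRB replicate 2 it did, at a limma adjusted p of 0.0468. Hist1h4n shares 77.2% of its windows with Hist1h4m, and the sum of the pair was 0.39, 3.23 and 0.72 FPKM in DRB libraries, against 4.01, 5.41 and 4.48 FPKM in Con libraries, again without overlap.

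**Figure D3:**
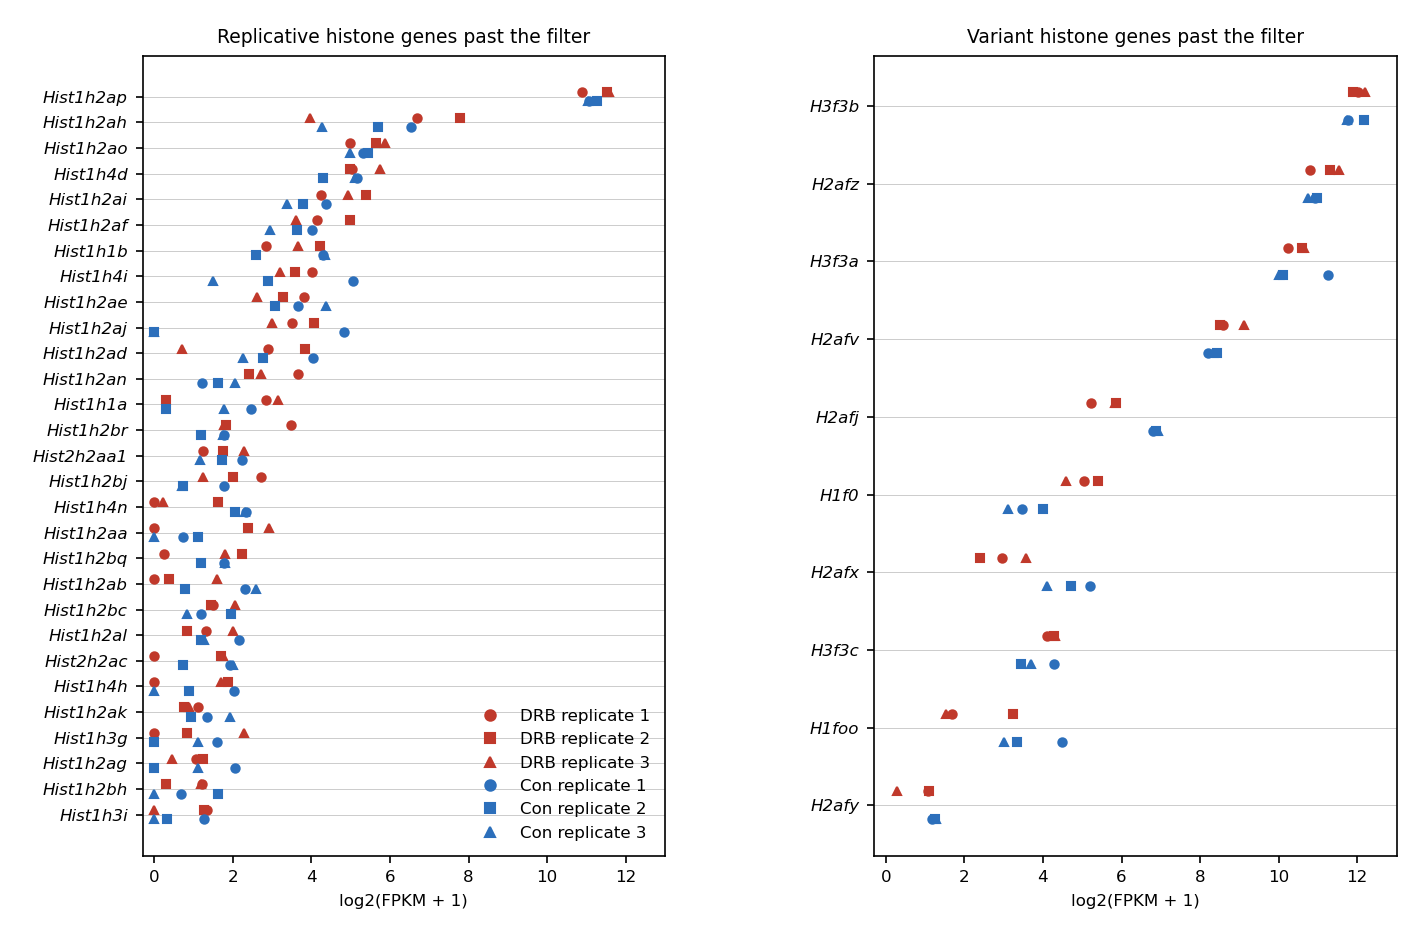
Level of each of the 39 tested histone genes in each library as log2(FPKM + 1) (horizontal axis), replicative genes left and variant genes right, sorted by mean, with the 3 DRB libraries (red) drawn above the 3 Con libraries (blue). Hist1h2ap lies apart from the other replicative genes, and the red and blue points do not overlap for H2afv, H2afj, H1f0, H2afx and H2afy among the variants.

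The variant linker histone genes H1f0 and H1foo stood on opposite sides of their Con means, and neither passed the test. H1f0 (chr15:79028450-79030504, plus strand) encodes H1.0, a linker histone made independently of replication and known from differentiated and resting cells. It had 32.0, 41.5 and 23.2 FPKM in DRB replicates 1 to 3, against 9.98, 15.0 and 7.63 FPKM in Con replicates 1 to 3. All 3 DRB libraries stood above all 3 Con libraries, with an estimated 1110 to 1761 fragments in DRB and 319 to 663 in Con. On the log2 scale the difference was 1.49 ± 0.37 SE (95% interval 0.68 to 2.31, limma adjusted p = 0.0624). It was called with a filter of at least 5 FPKM (limma adjusted p = 0.0424), with median-of-ratios scaling (0.0445) and with genes of transcripts under 200 bases left out (0.0452), 3 of 14 alternatives. It was not called in the rest, among them all 6 that leave out 1 library (limma adjusted p = 0.0635 to 0.186) and the fit with no filter (0.260).

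H1foo encodes the linker histone of the oocyte, which is replaced by other H1 forms during cleavage. It had 2.21, 8.37 and 1.89 FPKM in DRB replicates 1 to 3, against 21.4, 9.13 and 7.02 FPKM in Con replicates 1 to 3. Of the DRB libraries, replicate 2 lay between the Con values and the other two lay below them, so the groups overlapped (-1.46 ± 0.56 SE, 95% interval -2.69 to -0.23, limma adjusted p = 0.198). The ratio of H1f0 to H1foo, chosen after the values were seen, was 14.5, 4.96 and 12.3 in DRB replicates 1 to 3, against 0.467, 1.65 and 1.09 in Con replicates 1 to 3. H1fx, encoding H1.10, and the spermatid gene H1fnt were listed at 0 in all 6 libraries.

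H2afj (chr6:136808244-136810074, plus strand) encodes H2A.J, an H2A variant known to accumulate in senescent human fibroblasts. It had 36.1, 56.8 and 56.0 FPKM in DRB replicates 1 to 3, against 111, 116 and 121 FPKM in Con replicates 1 to 3. The Con libraries lay close together and far above all DRB libraries, of which replicate 1 was lowest. The group means were 49.6 ± 11.8 FPKM in DRB and 115.9 ± 5.22 FPKM in Con libraries (SD, n = 3 each), which gave -1.24 ± 0.28 SE on the log2 scale (limma adjusted p = 0.0466). The call was near its threshold: leaving out any 1 of the 6 libraries gave log2 fold changes of -1.35 to -1.03 with limma adjusted p of 0.0665 to 0.155. It held in 2 of 14 alternatives, a filter of at least 5 FPKM and genes of transcripts under 200 bases left out. The mitochondrial share of the FPKM was 23.9% to 26.4% in DRB and 12.2% to 20.0% in Con, and with mitochondrial genes left out the log2 fold change of H2afj was -1.11 (limma adjusted p = 0.0715). No window of its transcript occurs in another gene.

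H2afx (chr9:44334694-44336077, plus strand) encodes H2A.X, the variant that is phosphorylated around DNA double-strand breaks. It had 6.76, 4.25 and 10.9 FPKM in DRB replicates 1 to 3, against 35.5, 25.1 and 16.3 FPKM in Con replicates 1 to 3. Every DRB library lay below every Con library, with an estimated 117 to 337 fragments in DRB and 440 to 983 in Con. On the log2 scale the difference was -1.70 ± 0.43 SE (95% interval -2.63 to -0.76, limma adjusted p = 0.0631). It passed with a filter of at least 5 FPKM (limma adjusted p = 0.0438) and with genes of transcripts under 200 bases left out (0.0454), 2 of 14 alternatives. It was not called without any 1 library (limma adjusted p = 0.0522 to 0.203) or with no filter (0.295), and it shares no window with another gene.

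The H2A.Z genes were among the abundant mRNAs of these embryos. H2afz encodes H2A.Z.1, a variant found at promoters and needed for early development. It had 1771, 2515 and 2986 FPKM in DRB replicates 1 to 3, against 1943, 2006 and 1725 FPKM in Con replicates 1 to 3. Of the DRB libraries, the second and the third lay above all Con libraries and the first lay among them (0.33 ± 0.27 SE, 95% interval -0.26 to 0.92, limma adjusted p = 0.577). H2afv, encoding H2A.Z.2, had 383, 362 and 558 FPKM in DRB libraries, against 293, 345 and 321 FPKM in Con libraries. All DRB values were above all Con values, by a log2 fold change of 0.42 ± 0.26 SE that did not pass (limma adjusted p = 0.435). H2afz was 4.62 to 6.94 times as high as H2afv per length in DRB libraries and 5.38 to 6.62 times in Con libraries.

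The remaining H2A variants were low. H2afy, encoding macroH2A1, a variant of silent chromatin, had 1.11, 1.15 and 0.22 FPKM in DRB replicates 1 to 3, against 1.28, 1.37 and 1.44 FPKM in Con replicates 1 to 3. The groups did not overlap, but the highest DRB and the lowest Con value lay close together (-0.42 ± 0.39 SE, limma adjusted p = 0.639). H2afy2, encoding macroH2A2, reached 0.02 FPKM at most in any library, and H2afb1, H2afb2, H2afb3 and the pseudogene H2afy3 were listed at 0 throughout.

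H3.3, the H3 variant that replaces protamines in sperm chromatin after fertilization, is encoded by both H3f3a and H3f3b. H3f3b was the most abundant histone mRNA and the 36th gene of all by mean FPKM. It had 4146, 3831 and 4675 FPKM in DRB replicates 1 to 3, against 3466, 4590.4 and 3416 FPKM in Con replicates 1 to 3, which overlapped (0.15 ± 0.26 SE, 95% interval -0.41 to 0.71, limma adjusted p = 0.823). H3f3a had 1210.3, 1555 and 1593 FPKM in DRB libraries, against 2457, 1105 and 1022 FPKM in Con libraries. The first Con library stood above all others and the other two were lowest, so that the log2 fold change of 0.04 ± 0.34 SE (95% interval -0.72 to 0.79, limma adjusted p = 0.969) and the ratio of the means, 0.951, had opposite signs. Without Con replicate 1 the log2 fold change was 0.44, which did not pass either. H3f3c, annotated as a processed pseudogene that shares 48.5% of its windows with other genes, had 16.2, 18.4 and 18.9 FPKM in DRB libraries, against 18.6, 9.82 and 12.1 FPKM in Con libraries (0.42 ± 0.35 SE, limma adjusted p = 0.583).

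**Figure D4:**
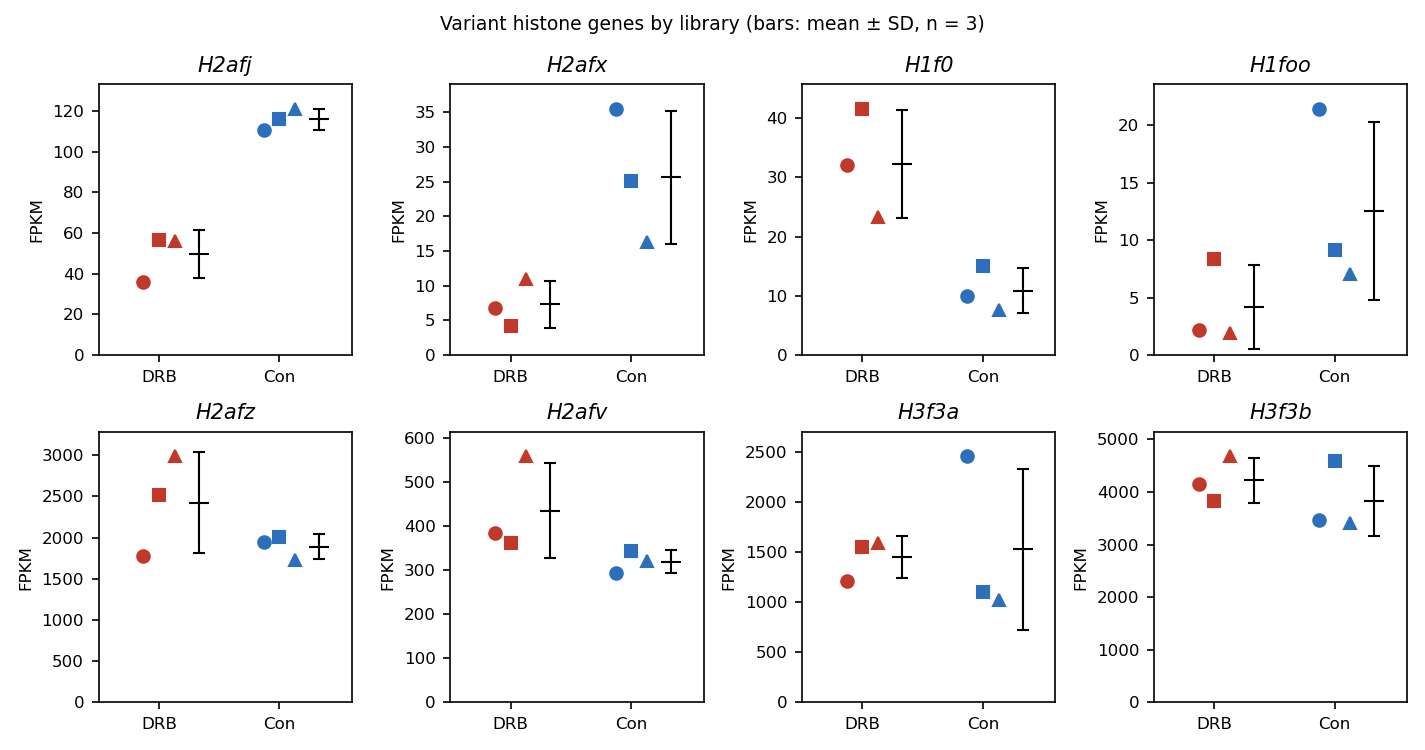
FPKM (vertical axis, from 0) of 8 variant histone genes in each DRB library (red, left) and Con library (blue, right), with mean ± SD beside each group (n = 3). H2afj and H2afx lie lower and H1f0 higher in all 3 DRB libraries, while H2afz, H3f3a, H3f3b and H1foo overlap between the groups and H2afv does not.

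H3f3a, H3f3b, H2afz and H2afv together made up 98.4% to 98.9% of the variant FPKM in DRB and 97.5% to 97.9% in Con. The 18 variant genes summed to 8641 ± 1179 FPKM in DRB and 7743 ± 950 FPKM in Con libraries (SD, n = 3 each), and the 69 replicative genes to 2994 ± 695 FPKM in DRB and 2477 ± 190.0 FPKM in Con libraries. All 87 genes held 0.947%, 0.996% and 1.05% of the FPKM in DRB replicates 1 to 3, against 0.935%, 0.925% and 0.819% in Con replicates 1 to 3. For both classes the difference between the means was smaller than the SD of the DRB libraries. As a share of the library, all 87 genes together did not overlap between the groups, with the lowest DRB value just above the highest Con value. The 14 variant genes other than the 4 abundant ones summed to 94.6, 130.7 and 111 FPKM in DRB libraries, against 198, 177 and 165 FPKM in Con libraries, without overlap. H2afj was the largest of them in each Con library, with 111, 116 and 121 FPKM there and 36.1, 56.8 and 56.0 FPKM in DRB libraries. The lack of overlap came from this gene, since the sums of the others overlapped between the groups.

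The remaining 48 genes did not pass the filter and were not tested. The highest value any of them reached in a library was 4.30 FPKM, in Hist1h2bk, and 13 were listed at 0 in all 6 libraries. Of these 13, 7 are replicative and 6 are variant genes. H3f3aos, the antisense RNA, reached 0.22 FPKM at most. Nothing states that strand was used in counting, so reads where it overlaps H3f3a could belong to either gene. That overlap is short, and 0.388% of the H3f3aos windows occur in H3f3a.

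Promoters of 250 bases before to 50 bases after the annotated start were taken from RefSeq (GRCm38.p6) for 62 replicative genes (63 promoters) and 15 variant genes. They were searched on both strands for 4 motifs, none of which contains another. These were the pentamer CCAAT, the TATA box, written TATAAA, the octamer known from H2B promoters, written ATTTGCAT, and the GC box, written GGGCGG. The CCAAT box was found in 85.7% of replicative and 66.7% of variant promoters, against 37.4% of all 32851 promoters in the table. The TATA box was found in 55.6% of replicative and 6.67% of variant promoters, against 13.6% of all, and the octamer in 22.2% and 6.67%, against 1.74% of all. The GC box was in 38.1% and 46.7%, against 35.7% of all. Some replicative windows overlap, as those of Hist1h2ap and Hist1h2br do, so a match there can count for both genes. A match was counted anywhere in the window. Promoters of 5 genes are shown, with every match in capitals. They are the called gene, the 2 variant linker genes that passed the filter, the most abundant replicative gene and the most abundant variant.
H2afj, chr6:136807998-136808297, plus strand: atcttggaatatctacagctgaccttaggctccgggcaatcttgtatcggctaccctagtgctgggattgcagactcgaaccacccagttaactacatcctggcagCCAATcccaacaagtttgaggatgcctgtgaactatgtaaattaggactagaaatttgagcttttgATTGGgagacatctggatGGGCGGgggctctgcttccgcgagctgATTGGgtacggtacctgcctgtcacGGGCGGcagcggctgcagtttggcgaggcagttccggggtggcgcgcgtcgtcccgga
H1f0, chr15:79027962-79028261, plus strand: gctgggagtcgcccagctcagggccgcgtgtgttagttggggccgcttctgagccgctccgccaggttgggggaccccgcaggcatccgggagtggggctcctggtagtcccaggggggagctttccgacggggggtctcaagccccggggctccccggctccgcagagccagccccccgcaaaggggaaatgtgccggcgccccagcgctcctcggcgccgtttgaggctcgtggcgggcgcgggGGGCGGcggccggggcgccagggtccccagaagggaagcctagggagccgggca
H1foo, chr6:115944681-115944980, plus strand: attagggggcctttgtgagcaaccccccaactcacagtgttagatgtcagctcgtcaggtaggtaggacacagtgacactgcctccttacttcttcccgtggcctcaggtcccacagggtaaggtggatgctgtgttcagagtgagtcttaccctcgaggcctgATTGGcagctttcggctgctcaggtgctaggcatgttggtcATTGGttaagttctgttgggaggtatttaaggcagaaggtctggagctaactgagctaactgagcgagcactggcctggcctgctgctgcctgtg
Hist1h2ap, chr13:21833426-21833725, minus strand: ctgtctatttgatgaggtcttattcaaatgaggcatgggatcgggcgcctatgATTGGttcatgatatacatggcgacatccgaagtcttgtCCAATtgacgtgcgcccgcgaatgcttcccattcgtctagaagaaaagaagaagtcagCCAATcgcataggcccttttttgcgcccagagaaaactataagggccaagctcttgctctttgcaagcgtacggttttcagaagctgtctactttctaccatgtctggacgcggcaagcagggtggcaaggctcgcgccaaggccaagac
H3f3b, chr11:116024455-116024754, minus strand: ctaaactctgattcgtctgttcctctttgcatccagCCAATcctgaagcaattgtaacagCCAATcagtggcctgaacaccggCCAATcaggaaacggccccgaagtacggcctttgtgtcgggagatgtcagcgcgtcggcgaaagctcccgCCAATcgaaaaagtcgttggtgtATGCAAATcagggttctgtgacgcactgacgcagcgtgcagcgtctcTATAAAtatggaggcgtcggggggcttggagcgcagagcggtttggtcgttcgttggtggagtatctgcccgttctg
The H2afj window held 3 CCAAT and 2 GC box matches, the H1f0 window 1 GC box and no CCAAT match, and the H1foo window 2 CCAAT matches. The H3f3b window held 4 CCAAT matches and was the only variant promoter with the TATA box and the only one with the octamer, which lies on its minus strand. The windows of Hist1h2ap and its copy Hist1h2ao share an identical stretch of 200 bases. It runs from the first base of the Hist1h2ap window to the last of the Hist1h2ao window. Their RefSeq starts are placed differently, so the rest of the windows cannot be compared. The RefSeq start of H1f0 lies upstream of its start in GENCODE M21. That of H3f3b lies downstream of the GENCODE start, within the gene's span there (chr11:116021912-116027962). A match is a description of the sequence and says nothing of whether a factor binds there.

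The factors that make and process replicative histone mRNA and the chaperones that carry histones were read from lists of their own. Of 23 genes for histone mRNA, 18 were tested and none was called, where 2.48% of all genes tested were called. At an unadjusted limma p below 0.05 there were 1 higher and 0 lower, where 18.1% of all genes tested reached it, and the median log2 fold change was 0.08. Slbp, encoding the stem-loop binding protein, had 294, 279 and 219 FPKM in DRB replicates 1 to 3, against 178, 206 and 151 FPKM in Con replicates 1 to 3. The DRB libraries all lay above the Con libraries, but the difference did not pass (0.56 ± 0.26 SE, limma adjusted p = 0.279). Ncbp2, a subunit of the nuclear cap-binding complex, had 804, 961 and 1075 FPKM in DRB libraries, against 687, 624 and 637 FPKM in Con libraries (0.53 ± 0.24 SE, limma adjusted p = 0.268). Npat, which drives transcription of the clusters in S phase, and Casp8ap2 (FLASH), a component of their processing machinery, overlapped between the groups, with log2 fold changes of 0.06 ± 0.36 SE and -0.01 ± 0.37 SE.

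Of 40 histone chaperone and exchange factor genes, 39 were tested and 1 was called, a share near the 2.48% of all genes tested. At an unadjusted limma p below 0.05 there were 2 higher and 4 lower, where 18.1% of all genes tested reached it. Anp32e, whose product removes H2A.Z from nucleosomes, was higher in DRB, with 229.8, 189 and 173 FPKM in DRB replicates 1 to 3, against 73.7, 94.2 and 84.2 FPKM in Con replicates 1 to 3. The lowest DRB value was well above the highest Con value, a difference of 1.22 ± 0.26 SE on the log2 scale (limma adjusted p = 0.0345). Leaving out any 1 library ended this call too, with limma adjusted p of 0.0580 to 0.1002. The H2A.Z genes H2afz and H2afv did not pass. The median over the 39 was -0.08, near the median of all genes.

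Among the other chaperones, Set had 917, 962 and 929.9 FPKM in DRB libraries, against 1704, 1304 and 1346 FPKM in Con libraries, with each DRB library lowest (-0.62 ± 0.24 SE, limma adjusted p = 0.1996). Npm1, the nucleolar chaperone and the most abundant of the list, had 3109.8, 3521 and 3091 FPKM in DRB libraries, against 3989, 3201 and 3300.5 FPKM in Con libraries, with overlap (-0.11 ± 0.24 SE, limma adjusted p = 0.874). The H3.3 chaperone gene Hira, the CAF-1 gene Chaf1a, the H3-H4 chaperone gene Asf1b and the oocyte nucleoplasmin gene Npm2 had log2 fold changes of 0.02, -0.67, -0.31 and -0.38, none of which passed. Anp32a, looked at after its values were seen, had 0.20, 5.77 and 1.12 FPKM in DRB libraries, against 6.23, 6.74 and 8.42 FPKM in Con libraries (limma adjusted p = 0.170), and without DRB replicate 2 it was called lower at a limma adjusted p of 0.0453. Of 21 histone genes outside the naming rule, Cenpa, the centromeric H3 variant, was the only one tested, with 205, 297 and 232 FPKM in DRB libraries, against 264, 149 and 112 FPKM in Con libraries (0.56 ± 0.33 SE, limma adjusted p = 0.413). Of the rest, 18 were listed at 0 in all libraries. The next most abundant after Cenpa, H2al2a, was not tested. It had 3.11, 0 and 0 FPKM in DRB libraries, against 1.55, 0 and 0 FPKM in Con libraries.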

How the data were processed

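Per the labels' protocols, RNA of mouse 4-cell embryos was amplified by Smart-Seq2 and sequenced on an Illumina HiSeq. The submitters' processing notes name cutadapt 1.16, STAR and the mm10 build; the tool behind the expression values and its annotation are not given. The deposited values are FPKM, per the file headers, one for each of 55335 genes in 6 libraries. They are scaled to a library's total, so a change of abundant transcripts moves the rest.

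The tested genes were the 11893 that reached 1 FPKM in 3 or more libraries. The fit used log2(FPKM + 1), limma 3.58.1 (R 4.3.3), a mean-variance trend and the group as its one term. P-values were two-sided and adjusted by Benjamini-Hochberg over all tested genes, and a gene was called below 0.05. Differences are given as DRB over Con with limma's moderated SE and 95% interval, and this scale understates changes of low genes. Depth came from the steps of 1 fragment in low values of single-transcript genes, 74.0% to 81.0% of which lay within 0.15 of a whole number. No count test was run, since the lengths behind the values are not known.

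The members, the gene lists, the alternatives and the tests were chosen with earlier results of these data known. Values are printed for called members, the 3 most abundant of each class with a mean of at least 1 FPKM, up to 8 members whose groups do not overlap, and 9 members chosen by name. From the lists they are printed for the called genes and the 2 most abundant of each. For 8 list genes chosen by name, library values or only the log2 fold change are given. Any other gene is said to have been picked after its values were seen. All 87 members matched GENCODE M21 (GRCm38), which gave coordinates and 3′ ends, and transcript windows of 150 bases were matched against all its transcripts. On simulated data for DRB over Con, run on 11893 genes, the fit found 4% of genes changed by 1 on the log2 scale, 55.2% at 2, 80.8% at 3 and 91.6% at 4, with 3.66% false calls. Noise was normal, and only genes with a mean log2(FPKM + 1) above 2 were changed. These shares thus do not cover lower genes, such as Hist1h4n with a mean of 1.42. The software was Python 3.11.15 with pandas 2.3.3, numpy 2.4.6 and matplotlib 3.10.9.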

Additional observations from a re-analysis of the deposited data

How the results depend on the processing

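With 3 libraries per group, small changes are mostly missed, and values of single replicative genes carry reads that near-identical copies may share. Over all genes, 295 were called, and 164 with a pseudocount of 0.1, 6 with no filter, 50 at an adjusted p below 0.01 and 47 to 220 without 1 library, the lowest without DRB replicate 1. Of the histone genes, 1 was called (H2afj). The count was 0 with a pseudocount of 0.1, no filter, a threshold of 0.01 or mitochondrial genes left out, and 3 (H2afj, H2afx and H1f0) with at least 5 FPKM or with transcripts under 200 bases left out; the same counts hold for the variant genes alone. With median-of-ratios scaling 1 was called, H1f0 in place of H2afj. Leaving out 1 library gave 0 to 1 over all histone genes, 0 to 1 over the replicative genes (Hist1h4n without DRB replicate 2, Hist1h2aj without Con replicate 1) and 0 to 0 over the variant genes. The count over the factor and chaperone lists was 1 (Anp32e), 0 with a pseudocount of 0.1, no filter or a threshold of 0.01, and 0 to 1 without 1 library. The cause of these shifts was not tested, other than that a threshold of 0.01 is stricter and that leaving out a library leaves fewer samples.

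With the replicate number as a block 171 genes were called, among them 0 histone genes, 0 variant genes and 0 of the lists. Same-numbered libraries did not deviate together (r = -0.047, 0.053 and -0.051). No label states a pairing, and these values cannot show whether replicates were handled in pairs.

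Of 488 values of 36 named genes under alternatives, 438 kept direction and side of the threshold, 22 lost the call, 6 gained it and 22 changed sign, in 11 genes. All of the sign changes were in genes that were not called. Scaling moved the median of all genes from -0.09 to 0.02 with mitochondrial genes left out, which turned Npm1 to 0.0277 and Casp8ap2 to 0.12. Median-of-ratios scaling turned Npm1 to 0.0033 and Casp8ap2 to 0.10. Without 1 library, log2 fold changes ranged as follows: Hist1h1b -0.74 to 0.20, Hist1h1a -0.0208 to 1.49, Hist1h2ah -0.16 to 1.75, Hist1h2bq -0.58 to 0.43, Hist1h3g -0.32 to 0.65, Hist1h4i -0.38 to 1.40, H3f3a -0.19 to 0.44, Npat -0.18 to 0.33, Casp8ap2 -0.36 to 0.33 and Hira -0.16 to 0.16.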
